A study of Rattus norvegicus with 90 samples.

Results

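The rat heart gave more reads to 300 genomic intervals than the liver or kidney of the same study did. These heart-restricted intervals are 300 of the 25095 stretches of the genome that the deposited tables list beside 40071 Ensembl rat transcripts, or 1.2% of them. They were chosen by their measured level in vehicle-treated rats. The level of an interval was its estimated counts per 1000000 transcript counts of its library (CPM). It was averaged over the vehicle samples of each organ, and the score was log2 of the heart mean plus 0.5 over the larger of the liver and kidney means plus 0.5. The 200 intervals with the most counts in the whole series were left out of the ranking, as was the vehicle liver library MS-1, so 29 vehicle samples set the score. The 300 highest scores of 24895 ranked intervals are the members described here, and their high level in vehicle hearts is therefore the rule and not a result.

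RNA was measured by poly-A-enriched RNA-seq in 90 samples, 5 in each of 18 groups of liver, kidney, and heart. Male Sprague-Dawley rats, 10 weeks old when bought and fitted with a jugular vein catheter, were injected intraperitoneally with vehicle (3 ml/kg saline) or with thioacetamide, a liver toxicant, at a low dose of 25 mg/kg or a high dose of 100 mg/kg. Organs were taken 8 or 24 h later. Rats of the 8 h groups had no food after the injection, whereas food was removed from those of the 24 h groups for the last 8 h only. The fast before harvest and the hour of harvest were thus alike. The 8 h groups were injected in the morning and the 24 h groups in the late afternoon. Time therefore cannot be told apart from feeding after the dose or from the hour of injection. Liver, kidney, and heart were harvested from the same rats, but the labels name no animal. Library numbers run in parallel in the organs, with the kidney 30 and the heart 60 above the liver, and all 28 numbers shared in this way by 77 of the 90 libraries have 1 dose and time. No source used here says that they mark a rat, so the organ comparison treats the samples as separate. Hearts were powdered whole, so a sample mixes muscle with vessel, valve, and other cells, and in such bulk tissue fewer cells of a type and less RNA per cell cannot be told apart.

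A genomic interval with reads in a poly-A library can lie in an intron of unspliced precursor RNA, beyond the annotated end of a messenger RNA, or in a long noncoding RNA that the transcript models lack. The heart is known for very abundant messenger RNAs of the contractile apparatus and of energy metabolism, and for long noncoding RNAs found mainly in heart muscle. Neither the labels nor the study's methods say how the intervals were drawn up or which genes they lie near, and no annotation of their build, Rnor_6.0, was used here. The members are therefore named by position, and the labelled organ could not be checked against its defining genes.

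Heart libraries held between 16332764 and 31570431 estimated counts, liver libraries between 16641408 and 36303248, and kidney libraries between 16919321 and 31562820. All intervals together took 5.4% to 21.7% of the counts of a heart library, 4.08% to 28.9% of a liver library, and 7.22% to 19.5% of a kidney library. The members took 0.332% to 0.427% of heart counts, 0.0138% to 0.0351% of liver counts, and 0.0402% to 0.0539% of kidney counts. By their labels MS-1 is a 24 h vehicle liver and MS-9 an 8 h low-dose liver. Yet the libraries agreed within 1 count at all 300 members and at 100% of the 25095 intervals. Liver sums, and counts of called members in the liver comparisons, that rest on either are given with and without it. Values of single members keep both libraries unless stated.

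The member means in the 10 vehicle hearts ran from 1.06 to 102.01 CPM, with a median of 7.06. The corresponding medians were 0.262 CPM in the vehicle liver and 0.671 CPM in the vehicle kidney, but the highest member means there were 11.2 CPM in the liver and 19.4 CPM in the kidney, so not every member was near 0 in the other organs. The kidney was the second organ for 273 members and the liver for 27. The scores ran from 6.95 down to 1.45, with a median of 2.10. At the threshold, the last 2 members by rank were chr11:33866539-33886538 and chrX:159717063-159723365, both with scores of 1.45, and the intervals just outside, chr3:98031005-98051004 and chr17:63808966-63825127, had scores of 1.45 as well. The heart mean of the last member was 15.9 CPM against 5.50 CPM in the kidney, and that of the first interval outside was 1.90 CPM against 0.379 CPM. The list therefore ends at no break in the scores, and it holds both weak and strong intervals: 121 members had at least 10 CPM in vehicle hearts and 26 had less than 2 CPM.

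The interval with the highest score, chr2:243346177-243365680, had 85.2 ± 8.05 CPM (SD, n = 10) in vehicle hearts, 0.110 CPM in vehicle livers, and 0.192 CPM in vehicle kidneys. The next were chr3:175770301-175779052 at 65.3 ± 26.9 CPM and chr3:63684611-63704610 at 53.0 ± 23 CPM (SD, n = 10), each at no more than 0.12 CPM in the vehicle means of the other organs. The fourth, chr19:27442037-27449323, was the most abundant member at 102.01 ± 14.6 CPM (SD, n = 10), with 0.299 CPM in the liver and 1.37 CPM in the kidney. The next 6 by score were chr9:49967922-49987921 (33.3 CPM in vehicle hearts), chr17:65514135-65534134 (56.8 CPM), chr17:66295516-66304001 (37.8 CPM), chr3:59397103-59408045 (26.6 CPM), chr4:7168010-7173460 (28.8 CPM), and chr11:66731699-66736465 (60.8 CPM). These 10 differed in how far rats spread, from an SD of 1.49 CPM around 28.8 CPM at chr4:7168010-7173460 to 26.9 CPM around 65.3 CPM at chr3:175770301-175779052.

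Per length, in TPM, the order changed. The highest vehicle heart mean among the members was 23.3 TPM at chr6:99655863-99659150, followed by 22.9 TPM at chr4:51587382-51589912, 18.8 TPM at chr15:4073136-4076590, 14.4 TPM at chr1:77844690-77847099, 13.9 TPM at chr19:27442037-27449323, and 12.8 TPM at chr11:66731699-66736465. These intervals span 2410 to 7287 bases, whereas chr2:243346177-243365680, with its 19504 bases, reached 4.27 TPM. The median member had 0.599 TPM.

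The treated rats, whose samples the rule did not use, showed the same organ difference. In the 20 treated hearts the level of chr2:243346177-243365680 ran from 67.7 to 98.2 CPM (median 86.2), in the 20 treated livers from 0 to 0.617 CPM (median 0.188), and in the 20 treated kidneys from 0.1 to 0.584 CPM (median 0.301). No treated heart came near any liver or kidney, and the fitted log2 difference was 8.56 ± 0.171 (SE) from the liver and 8.57 ± 0.165 from the kidney. For chr19:27442037-27449323, the treated hearts lay between 86.9 and 138 CPM (median 104.6), the livers between 0.119 and 0.758 CPM (median 0.307), and the kidneys between 0.124 and 2.28 CPM (median 0.694). Its log2 difference was 8.17 ± 0.159 (SE) from the liver and 7.48 ± 0.147 from the kidney. Among the long intervals, chr17:65514135-65534134 lay between 41.6 and 68.1 CPM in treated hearts, at no more than 0.511 CPM in treated livers, and at no more than 1.03 CPM in treated kidneys.

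A member was called higher in the heart where the adjusted p-value was no more than 0.01 and the log2 difference at least 0.866, the study's limit of 0.60 on the natural-log scale. By edgeR's quasi-likelihood test over the 60 treated samples, 297 of the 300 members were higher in the heart than in the liver, with a median log2 difference of 4.02, where 23.4% of the 15055 intervals tested were higher. Against the kidney, all but 1 of the 300 were higher, with a median log2 difference of 3.44, where 14.4% of the intervals tested were higher. None was called lower. In 248 members every treated heart lay above every treated liver and kidney, as did 1.74% of all intervals. Scored on the treated samples alone, 258 of the 300 intervals with the highest scores were members (86%), and the median member score there was 2.07. One member, chr15:33630201-33631916, was at 0 in all 20 treated kidneys and its treated heart mean of 9.26 CPM was at least 63-fold higher than the level of 3 counts in a kidney library.

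**Figure D1:**
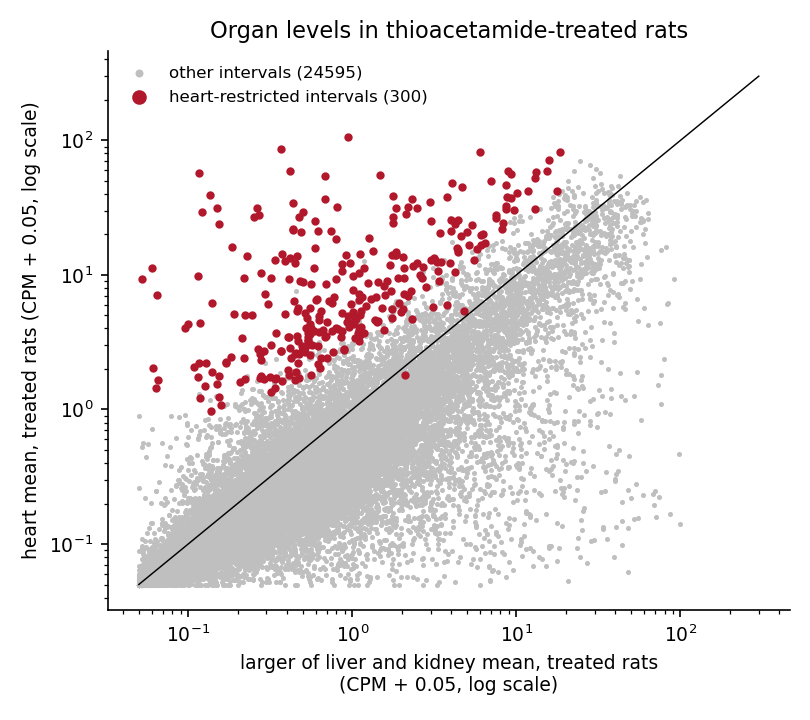
Heart mean against the larger of the liver and kidney means in the 60 thioacetamide-treated samples, both as CPM + 0.05 on log axes, with 1 point per interval, red for the 300 heart-restricted intervals and grey for the other ranked intervals. All but 1 of the red points lie above the line of equal level, and the red point below it is chr10:47165097-47181932.

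The exceptions were 3 members with the smallest difference from another organ. At chr10:47165097-47181932 the log2 difference in treated rats was 0.28 ± 0.653 (SE, adjusted p = 0.719) from the liver and 0.36 ± 0.643 (adjusted p = 0.621) from the kidney. Without the 24 h low-dose heart MS-67 both were below 0, at -1.21 and -1.12. The treated hearts ran from 0 to 5.77 CPM, with a median of 0.0398, below the medians of the treated liver (0.95 CPM) and kidney (1.37 CPM), although its vehicle hearts had averaged 5.66 CPM. At chr2:114389883-114409882 the treated hearts had 3.58 to 7.4 CPM and the treated livers 0.820 to 19.5 CPM, a log2 difference of 0.58 ± 0.124 (SE, adjusted p = 3.77e-05) that was under the fold limit. At chr7:26428330-26439959, with 3.21 to 6.84 CPM in treated hearts and 1.82 to 9.23 CPM in treated livers, it was 0.62 ± 0.0972 (SE, adjusted p = 1.19e-07), also under the limit. Livers overlapped hearts at both intervals, and both were among the members that rose in the liver after the high dose, as given further on.

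The summed level of the 300 members differed little between the groups of hearts, with means of 3922 to 4422 CPM. The vehicle hearts chose the members as high there, so a treated sum below vehicle is favoured by the rule. At 8 h it ran from 3833 to 4530 CPM (median 4071) with vehicle, from 3897 to 4186 CPM (median 3978) in low-dose hearts, and from 3713 to 4451 CPM (median 4081) in high-dose hearts. At 24 h it ran from 4222 to 4515 CPM (median 4481) with vehicle, from 3937 to 4687 CPM (median 4387) in low-dose hearts, and from 3532 to 4239 CPM (median 3926) in high-dose hearts. The 24 h high-dose hearts were the lowest group and overlapped the vehicle hearts by a narrow margin, 4239 against 4222 CPM. The 24 h low-dose hearts MS-62, MS-65, and MS-67, with 20.2% to 20.9% of counts on intervals, had 4387 to 4687 CPM. MS-82 and MS-83, with 5.79% and 5.77%, had 3952 and 3937 CPM. The highest high-dose sum was in MS-66, at 18.3%. Vehicle MS-80 and MS-81, at 6.34% and 6.41%, had 4409 and 4481 CPM. The part of that share in the heart sums was not tested. No test was made of a sum over members. The 10 most abundant members held 17.7% of the summed mean in treated hearts, so no small set of intervals made up the sum. In kidneys the group medians were 522 to 571 CPM.

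**Figure D2:**
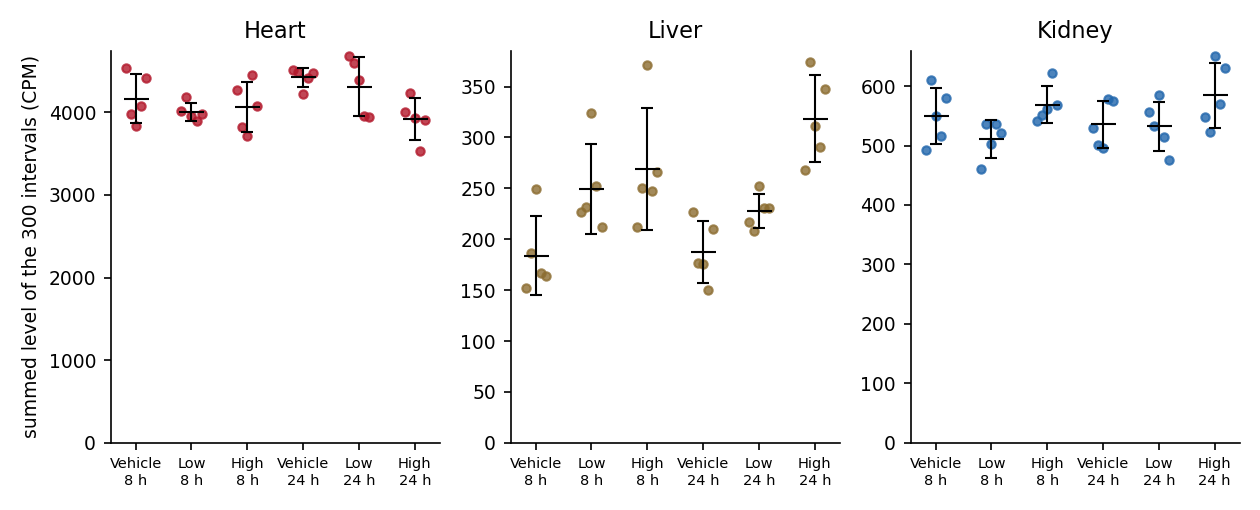
Summed level of the 300 heart-restricted intervals in CPM for each sample (points) with the group mean and SD (black), in the heart, liver, and kidney by dose and time, each organ on its own axis from 0. Heart sums lie between 3532 and 4687 CPM, kidney sums between 459.8 and 649.9 CPM, and liver sums between 149.9 and 374 CPM with the 24 h high-dose livers highest.

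In the heart itself, thioacetamide moved few of these intervals past the criteria. All 300 members passed the filter on low counts in each heart comparison apart from 1 in the 24 h comparison of high with low dose. With edgeR's quasi-likelihood test, 5 samples against 5, no member was called with the low dose at 8 h or 24 h, nor with the high dose at 8 h, where 0% of the intervals tested were called in each case. None was called between the high and low dose at 8 h or 24 h, between vehicle hearts at 24 h and 8 h, or in the interaction of the high dose with time, where again 0% of intervals were called. DESeq2 called 2 members, both lower, at 8 h after the high dose and 2, both lower, between the high and low dose at 24 h.

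At an unadjusted p under 0.05, members passed in 23 cases after the low dose at 8 h (7.67%, against 4.58% of the intervals tested) and in 40 at 24 h (13.3% against 5.81%). After the high dose it was 53 members at 8 h (17.7% against 6.33%) and 86 at 24 h (28.7% against 11.3%). Between the high and low dose it was 53 members at 8 h (17.7% against 6.61%) and 54 at 24 h (18.1% against 7.91%). Vehicle hearts at 24 h against 8 h gave 18 members (6% against 4.56%), and the interaction 36 (12% against 4.85%). The members are more abundant in the heart than most of the intervals tested, and the part of that in these shares was not tested.

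Most of the members with a small unadjusted p at 24 h were lower after the high dose. Of the 86, 72 were lower than vehicle (24% of the members, against 7.94% of the intervals tested) and 14 were higher. Against the low dose, 40 were lower (13.4%, against 6.48% of the intervals tested) and 14 were higher. The median log2 fold change against vehicle at 24 h was -0.14 over the members and -0.07 over all intervals tested, while against the low dose it was -0.12 over both. The vehicle hearts also chose the members, so the direction against vehicle is not independent of the rule, whereas the comparison of doses used no sample of the rule. The share of a library's counts on all intervals also differed between these groups, with medians of 10.5% in vehicle, 20.2% in low-dose, and 7.97% in high-dose hearts at 24 h, and its part in the result was tested only as a covariate. With the covariate the median against the low dose was -0.03 over the members and -0.02 over all intervals tested, with 133 members above 0 in place of 94, and 30 members were lower and 23 higher at an unadjusted p under 0.05. Against vehicle the medians with the covariate were -0.14 and -0.07, and 3 members were called.

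**Figure D3:**
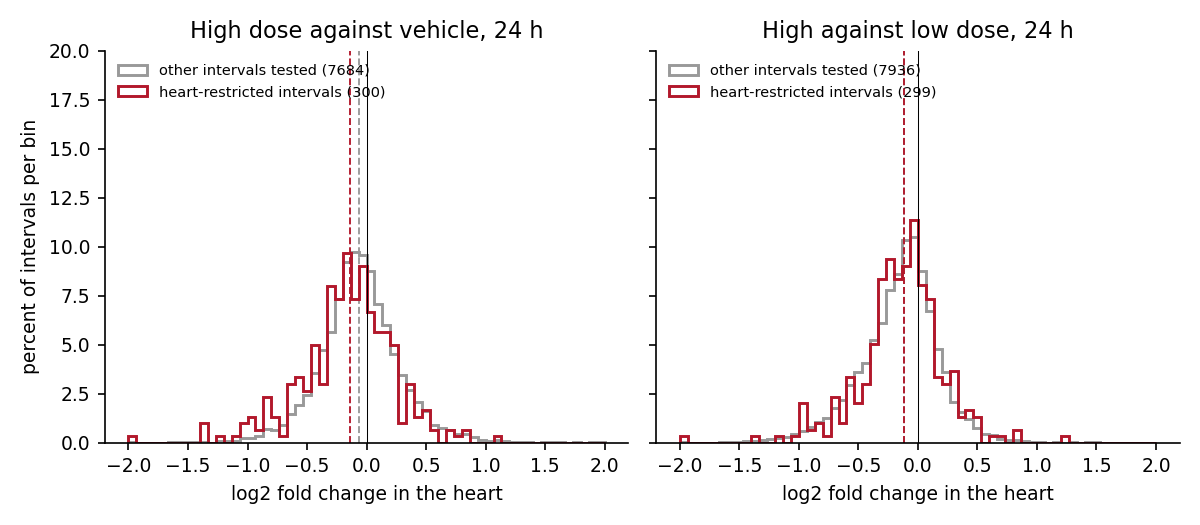
Distribution of the fitted log2 fold changes in the heart at 24 h, as the percent of intervals per bin, for the heart-restricted intervals (red) and the other intervals tested (grey), with dashed lines at the medians and values beyond 2 set to 2. Both red medians lie left of 0, at -0.14 against vehicle and -0.12 against the low dose, and the grey distribution overlaps the red one throughout.

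After the high dose at 24 h, 2 of the 300 members were called (0.667%, against 0.251% of the 7984 intervals tested), 1 lower and 1 higher. The lower one was chr15:33603335-33605153, an interval of 1819 bases. Its vehicle hearts at 24 h had 6.05, 6.85, 3.59, 5.59, and 7.90 CPM, the low-dose hearts 6.86, 5.99, 4.18, 4.55, and 4.30 CPM, and the high-dose hearts 2.81, 1.92, 2.22, 1.46, and 2.86 CPM. Every high-dose heart lay below every vehicle and low-dose heart. The level was 2.62-fold lower than with vehicle, a log2 fold change of -1.39 ± 0.237 (SE, adjusted p = 0.00687), and against the low dose the log2 difference was -1.16 ± 0.219 (adjusted p = 0.0840). At 8 h the log2 fold change was -0.32 ± 0.197 (adjusted p = 0.719), and the difference between times had an adjusted p of 0.395. Its call ended when any vehicle or high-dose heart other than vehicle MS-79 was left out, with adjusted p-values between 0.0113 and 0.0217.

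The higher one was chr9:43108988-43111641, of 2654 bases. Vehicle hearts at 24 h had 6.59, 8.48, 9.62, 7.4, and 10.4 CPM, low-dose hearts 10.3, 7.93, 13.1, 6.11, and 15.8 CPM, and high-dose hearts 21.8, 16.5, 23.5, 15.1, and 14.6 CPM. The high-dose hearts all lay above the vehicle hearts and overlapped the low-dose hearts. The level was 2.19-fold higher than with vehicle, a log2 fold change of 1.13 ± 0.166 (SE, adjusted p = 0.00307), and the log2 difference from the low dose was 0.83 ± 0.237 (adjusted p = 0.249). At 8 h the high-dose hearts had 15.3, 11.4, 6.75, 11.4, and 10.4 CPM against 8.53, 4.59, 8.68, 9.98, and 5.36 CPM with vehicle, a log2 fold change of 0.53 ± 0.246 (adjusted p = 0.574). The call at 24 h ended without vehicle library MS-64 (adjusted p = 0.0108) or MS-80 (adjusted p = 0.01, just above the limit). The count of called members was 0 without either of these libraries and 5 without high-dose library MS-84.

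The remaining 4 members that passed the adjusted p-value at 24 h were all lower after the high dose and missed only the fold limit, and they are named after their values were seen. The clearest was chr20:28717745-28722080, with 28.5, 29.5, 29.5, 27, and 25.2 CPM in vehicle hearts, 21.2, 15.8, 17.2, 24.8, and 23.1 CPM in low-dose hearts, and 13.7, 15.4, 17, 15.3, and 17.1 CPM in high-dose hearts. The vehicle hearts lay above both treated groups, and the low-dose hearts overlapped the high-dose hearts, with a log2 fold change of -0.81 ± 0.0765 (SE, adjusted p = 0.000284) at the high dose and -0.48 ± 0.110 (adjusted p = 0.254) at the low dose. At 8 h its high-dose hearts had 18.8 to 25.1 CPM against 24.8 to 30.7 CPM with vehicle, a log2 fold change of -0.47 ± 0.0850 (adjusted p = 0.0828). The others were chr18:57050910-57053447 (log2 fold change -0.81 ± 0.143, adjusted p = 0.00814), chr1:171980434-171993356 (-0.58 ± 0.0818, adjusted p = 0.00253), and chr17:66295516-66304001 (-0.57 ± 0.104, adjusted p = 0.00958). At chr1:171980434-171993356 the 24 h vehicle hearts had 15.1 to 16.9 CPM, the low-dose hearts 11.8 to 14.2 CPM, and the high-dose hearts 9.31 to 12.2 CPM, so vehicle hearts lay above both treated groups.

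The 10 members with the largest vehicle heart means were picked on the vehicle hearts, so a fall from vehicle is favoured by that choice. None of them was called in 24 h high-dose hearts. At an unadjusted p under 0.05, 5 of them were lower than vehicle, as were 24% of all members and 7.94% of the intervals tested. Among the other 5, for chr2:243346177-243365680 the 24 h hearts had 96.3, 84.9, 83.7, 93.3, and 90.5 CPM with vehicle and 92.3, 84.8, 86.5, 94.2, and 81 CPM with the high dose, with a log2 fold change of -0.01 ± 0.0581 (SE, adjusted p = 0.953). For chr19:27442037-27449323 they had 104, 89.8, 93.7, 117, and 136 CPM with vehicle and 111, 117, 116, 95.1, and 104.5 CPM with the high dose, with a log2 fold change of 0.03 ± 0.105 (SE, adjusted p = 0.929). The groups overlapped at both. At chr12:30527062-30533751 the log2 fold change was -0.04 ± 0.0574 (SE, adjusted p = 0.791) and at chr15:4073136-4076590 -0.27 ± 0.149 (SE, adjusted p = 0.379). At chr6:99655863-99659150, the member with the most reads per length, all 30 hearts lay between 66.5 and 82 CPM. The lower ones began with chr17:23805570-23823131, where vehicle hearts had 58.7 to 69.8 CPM and high-dose hearts 46.8 to 55.7 CPM, with no overlap and a log2 fold change of -0.34 ± 0.0733 (SE, adjusted p = 0.0202). At chr5:70512161-70528188 vehicle hearts had 91.1 to 119 CPM and high-dose hearts 64.6 to 89.8 CPM, again with no overlap, and the log2 fold change was -0.44 ± 0.0998 (SE, adjusted p = 0.0286). At chr13:88311465-88316644 it was -0.25 ± 0.0886 (SE, adjusted p = 0.138), and at chr4:119231229-119249181, which varied widely between rats, -1.37 ± 0.593 (SE, adjusted p = 0.248). The fifth, chr3:175770301-175779052, had 82.1, 92.6, 63.8, 42.9, and 104.7 CPM in vehicle hearts at 24 h and 36.2, 56.4, 26.1, 11.2, and 17.3 CPM in high-dose hearts. These ranges overlapped, and its log2 fold change of -1.37 ± 0.378 (SE) had an adjusted p of 0.0609. Against the 24 h low-dose hearts, which neither the rule nor this choice used, the 5 lower members were not called. Their log2 differences ran from -0.93 to -0.20, with adjusted p-values of 0.311 to 0.643 by the same test.

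Some members differed widely between rats of one group. The SD of log2(CPM + 0.5) within the treated heart groups had a median of 0.284 over the members, and 12 members had an SD of at least 1 (4%), as did 32 of 4427 other intervals with at least 1 CPM (0.723%). In 8 of the 12 the SD within the vehicle groups was at least 1 as well. The 6 with the largest SD are described here, named after their values were seen. At chr19:9643205-9663204 the hearts MS-79 (24 h vehicle), MS-83 (24 h low dose), and MS-109 (8 h low dose) had 0.935, 2.09, and 0.353 CPM, and the other 27 hearts had 21 to 80.8 CPM. The 3 low hearts came from 3 groups, none of them given the high dose. The treated livers had 0.839 to 2.46 CPM at this interval.

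At chr10:47165097-47181932, the member that did not keep its difference in treated rats, 12 of the 30 hearts had no more than 0.0483 CPM and the other 18 had 2.01 to 13 CPM. Only 1 of the 10 vehicle hearts, MS-73, was among the 12 low ones. At chr1:90979408-90995044, 5 hearts from 5 groups were at 0 and the other 25 had 1.31 to 8.82 CPM. Each cut, here and at the other intervals picked for their large SD, was placed at the widest gap between hearts on a log scale. A gap with no heart in it therefore follows from the cut and is no result. Whether the hearts form separate groups was not tested.

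At chr3:9511360-9531359, 9 hearts had no more than 1.37 CPM and 21 had at least 5.78 CPM. At chr7:119123612-119143611, 11 hearts had no more than 1.48 CPM and 19 had 3.63 to 20.9 CPM. At chr4:119231229-119249181 the cut left only MS-109, at 1.05 CPM, below the other hearts, which were spread from 9.68 to 197 CPM. None of the 6 was called in a heart comparison.

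**Figure D4:**
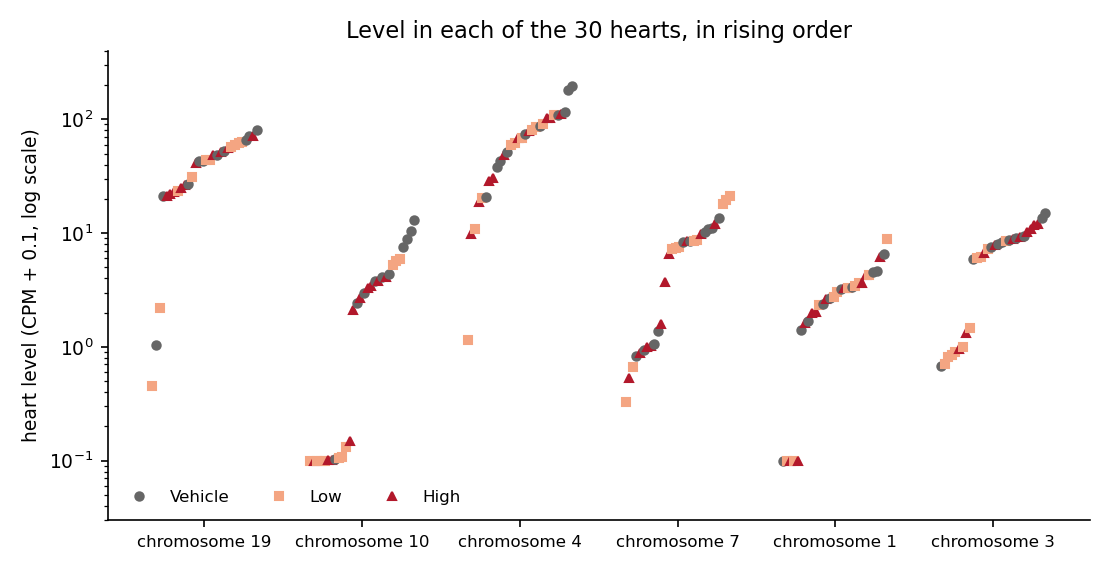
Level of the 6 most variable heart-restricted intervals, named by chromosome, in each of the 30 hearts in rising order, as CPM + 0.1 on a log axis, with marks for vehicle, low, and high dose of both times. On chromosome 19, 3 hearts lie at least 10-fold below the other 27, and on chromosome 10, 12 hearts lie at or near 0, with hearts of all doses among the 12.

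In the liver, where the rule kept these intervals below the heart, their summed level was higher after thioacetamide. The vehicle livers other than MS-1 helped to choose the members as low there, so a sum above vehicle is favoured by the rule. At 8 h the sum ran from 152 to 249 CPM (median 167) with vehicle, from 212 to 324 CPM (median 231) in low-dose livers, and from 212 to 371 CPM (median 250.1) in high-dose livers. At 24 h it ran from 149.9 to 226 CPM (median 177) with vehicle, from 208 to 252 CPM (median 231) in low-dose livers, and from 268 to 374 CPM (median 311) in high-dose livers. The 24 h high-dose livers lay above all vehicle and low-dose livers, while at 8 h the groups overlapped. In each 8 h group the highest sum was in the library with the largest share of counts on intervals. These were MS-16 (vehicle, 23.6%), MS-15 (low dose, 26.4%), and MS-14 (high dose, 28.9%), and the part of that share in the sums was not tested. Without MS-1 the 24 h vehicle sums ended at 210.1 CPM, and without MS-9 the 8 h low-dose sums kept their range of 212 to 324 CPM. Even the highest liver sum was under the lowest kidney sum of 459.8 CPM.

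The 4 liver comparisons that follow were added after these sums were seen. Between 121 and 134 members passed the filter on low counts in the liver, in part through the treated livers, so the counts describe those members and not all 300. The vehicle livers also helped to choose the members as low in the liver, so a rise from vehicle is favoured by the rule, and nothing is read from the counts against vehicle. At 8 h after the high dose, 20 of 129 members were higher than vehicle (15.5%, against 11.8% of the intervals tested) and 8 were lower (6.2%, against 9.94%). At 24 h, 6 of 121 were higher (4.96%, against 2.91%) and 1 was lower (0.826%, against 7.78%), and without MS-1 the count rose to 10 higher and 10 lower of 132. Between the high and low dose, which uses no sample of the rule, 5 of 133 were higher at 8 h (3.76%, against 1.66%) and 0 lower (0.714% of intervals), and without MS-9 3 were higher. At 24 h, 0 of 134 were higher (2.8% of intervals) and 1 was lower (0.746%, against 2.25%). A share of members near that of all intervals is no result about the members.

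The liver levels of single members are given next, with the low dose as the reference that the rule did not use. The member with the largest log2 fold change from vehicle at 8 h was chr12:45883961-45903960. Its vehicle livers had 0, 0.0469, 0.263, 0.172, and 0.0368 CPM, the low-dose livers 0.715, 0.253, 0.587, 1.09, and 0.335 CPM, and the high-dose livers 1.70, 3.33, 3.73, 1.72, and 2.41 CPM. The high-dose livers lay above all others, and the log2 difference from the low dose was 2.26 ± 0.403 (SE, adjusted p = 0.00621), or 2.32 (adjusted p = 0.0112) without MS-9. The log2 fold change of 4.45 ± 0.603 (SE, adjusted p = 0.000143) from vehicle sets these livers against a group near 0 that the rule used. At 24 h its high-dose livers had 0.787 to 1.14 CPM. Hearts held 3.83 to 9.57 CPM after treatment, so the liver level stayed below every treated heart.

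The liver reached the level of the heart at chr2:114389883-114409882. At 8 h its vehicle livers had 0.683, 1.13, 1.28, 0.722, and 1.08 CPM, the low-dose livers 6.80, 5.07, 5.05, 6.17, and 3.10 CPM, and the high-dose livers 7.97, 9.01, 19.5, 7.04, and 11.7 CPM. The groups did not overlap. The log2 fold change from vehicle was 3.33 ± 0.310 (SE, adjusted p = 1.22e-05), and the log2 difference of 1.22 ± 0.284 (SE) between the doses had an adjusted p of 0.0187 and was not called. That dose comparison kept MS-9, the highest low-dose liver here at 6.80 CPM. By 24 h the high-dose livers had 1.25 to 3.19 CPM and the vehicle livers 0.583 to 2.15 CPM apart from MS-1, at 6.80 CPM like MS-9. In 24 h high-dose hearts the same interval was not called, with a log2 fold change of -0.64 ± 0.141 (SE, adjusted p = 0.0235).

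High-dose livers were also lower at 24 h than at 8 h at chr15:33115330-33120772 and chr7:26428330-26439959. Vehicle livers of both times, without MS-1, had 0.0662 to 0.599 CPM at the first interval and 1.22 to 2.89 CPM at the second. A return to the vehicle level was not tested. At chr15:33115330-33120772 the 8 h vehicle livers had 0.107 to 0.318 CPM and the high-dose livers 1.52 to 5.67 CPM, a log2 fold change of 4.03 ± 0.47 (SE, adjusted p = 5.07e-05), with 0.550 to 1.17 CPM at 24 h. At chr7:26428330-26439959 the vehicle livers had 1.22 to 2.89 CPM and the high-dose livers 4.55 to 9.23 CPM, a log2 fold change of 1.66 ± 0.273 (SE, adjusted p = 0.000521), with 2.09 to 4.39 CPM at 24 h. Between the doses at 8 h, with MS-9 kept, the log2 difference was 2.05 ± 0.463 (SE, adjusted p = 0.0165) at chr15:33115330-33120772. At chr7:26428330-26439959 it was 1.10 ± 0.230 (SE, adjusted p = 0.0121), and both were over the limit on the adjusted p-value. Whether the effect differed between times in the liver was not tested.

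The interval chrX:66539609-66559608 was higher in high-dose livers than in the vehicle livers at both times, with the larger log2 fold change at 24 h. A rise from vehicle livers is favoured by the rule, the interval was picked for its large rise, and the difference between times was not tested. At 24 h its vehicle livers had 0.913 (MS-1), 0.113, 0.0990, 0.0930, and 0.333 CPM, the low-dose livers 1.90, 2.46, 2.69, 2.28, and 7.87 CPM, and the high-dose livers 3.4, 9.90, 8.84, 4.27, and 6.60 CPM. Both doses lay above all vehicle livers, and the high dose had a log2 fold change of 3.84 ± 0.546 (SE, adjusted p = 0.000586), or 4.47 (adjusted p = 4.05e-05) without MS-1. From the low dose it differed by 0.61 ± 0.409 (SE, adjusted p = 0.302). At 8 h the high-dose livers had 0.517 to 0.860 CPM against 0.132 to 0.303 CPM with vehicle, a log2 fold change of 1.72 ± 0.314 (SE, adjusted p = 0.00105). The interval was not called between the doses at 8 h. The hearts held 3.19 to 8.04 CPM after treatment, and the log2 fold change there at 24 h was 0.06 ± 0.196 (SE, adjusted p = 0.922).

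Among the members called lower than vehicle in the liver, chr5:5990168-5998974 had 0.480 to 1.95 CPM in 8 h vehicle livers. Its high-dose livers had 0.117 to 0.306 CPM, a log2 fold change of -2.34 ± 0.499 (SE, adjusted p = 0.00276). At 24 h, chr8:97505307-97525306 fell from 0.646 to 1.52 CPM with vehicle to 0.210 to 0.552 CPM with the high dose, a log2 fold change of -2.31 ± 0.395 (SE, adjusted p = 0.00151), or -2.56 (adjusted p = 0.000384) without MS-1. Its log2 difference from the low dose was -1.46 ± 0.412 (SE, adjusted p = 0.0230). Treated hearts held 13.8 to 28.9 CPM at chr5:5990168-5998974 and 3.67 to 9.62 CPM at chr8:97505307-97525306.

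**Figure D5:**
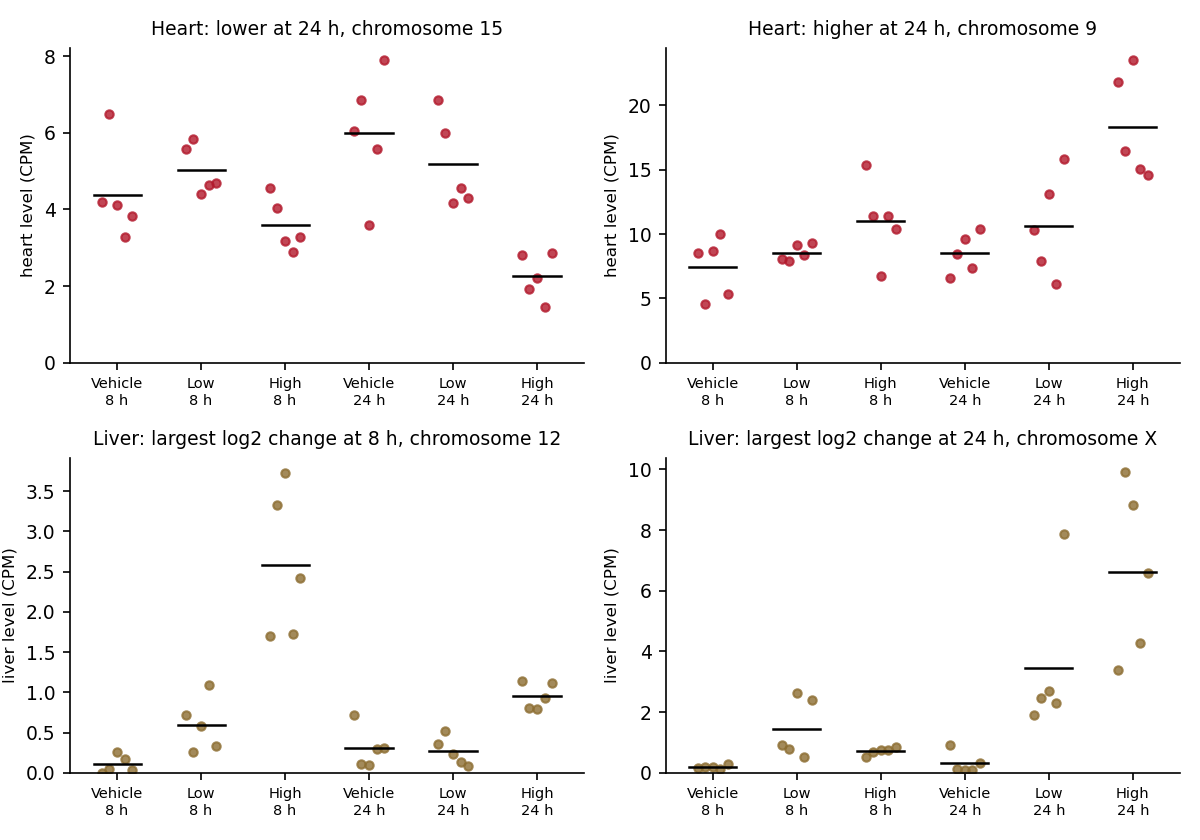
Level in CPM of 4 heart-restricted intervals by dose and time, with 1 point per sample and a bar at the group mean: the members called lower and higher in 24 h high-dose hearts (top), and the members with the largest log2 fold change from vehicle in high-dose livers at 8 h and at 24 h (bottom). In each panel the high-dose samples of the named time lie apart from the vehicle samples of that time.

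The members were spread over the genome. They lay on 21 chromosomes, with 39 members on chromosome 1 (13%, as against 12.4% of all intervals), 15 on chromosome 19 (5% against 2.39%), and 4 on the X chromosome (1.33% against 4.69%). Their median length was 17943 bases against 20000 for all intervals, and 45.7% of the members were exactly 20000 bases, the longest length in the tables, against 55.5% of all intervals. Of the members' counts above 0 in all samples, 12.4% were whole numbers within 0.001, against 9.15% over all intervals, and 18 members had whole counts in every sample. Kallisto divides reads that fit several targets between them, so the level of an interval that shares sequence with a transcript is uncertain.

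Within 50000 bases of another member lay 27 members, in 13 sets. The closest pair, chr19:27442037-27449323 and chr19:27450427-27456974, was 1103 bases apart, with 106.1 ± 13.2 and 26.7 ± 5.39 CPM in treated hearts (SD, n = 20), or 14.5 and 4.06 TPM. The only set of 3 was chr1:171969600-171971200, chr1:171980434-171993356, and chr1:171998403-172009193, with 5.30 ± 1.43, 12.6 ± 2.11, and 9.39 ± 1.86 CPM (SD, n = 20), or 3.55, 0.955, and 0.864 TPM. The called interval chr15:33603335-33605153 lay 25047 bases from chr15:33630201-33631916, which had 9.26 ± 2.0 CPM in treated hearts (SD, n = 20). The nearest other interval within 50000 bases was no member for 190 members. Over those neighbours the median log2 of heart over the larger of liver and kidney in treated rats was -0.12, and 6.84% were at 1 or above, against -0.21 and 1.11% over all intervals that are not members, so the typical neighbour was not higher in the heart.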

How the data were processed

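The authors sequenced poly-A-enriched libraries as 75-bp read pairs and pseudo-aligned them with Kallisto (0.42.2 and build Rnor_6.0, per the submitters' processing notes). They deposited for each target an estimated count, which need not be whole and is not normalized, and a TPM, scaled by effective length and library. How the intervals were made is not given in the sources used here.

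Counts of all 65166 targets were rounded and fitted in edgeR 4.0.16 (R 4.3.3) with its default filter, library sizes and TMM factors from transcripts alone, the quasi-likelihood test, and Benjamini-Hochberg adjustment over all targets tested. Only the 2 groups compared entered a fit, except for the interaction (20 samples) and the organ contrasts (60 treated samples). DESeq2 1.42.0 was an alternative. Python 3.11.15 with pandas 2.3.3 made the tables, and matplotlib 3.10.9 drew the plots. The scripts were tested on simulated data.

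The members and lists were chosen with earlier results of these data known. Named members were the 10 highest scores, the 10 largest vehicle heart means, up to 5 called rises and falls per heart comparison, the 2 on either side of the last rank, the 3 smallest treated differences, and those stated as named after their values were seen. The liver comparisons and the covariate were added then too. The preset lists of cardiac genes were not analysed here, since the intervals carry no gene names. Samples were grouped by their GEO titles, and p-values measure the spread between the 5 samples of a group.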

Additional observations from a re-analysis of the deposited data

Results flagged for a closer look

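The summed level and the 10 most abundant members were checked in the heart groups for a sample whose gap to its nearest neighbour is large for the range of its 5 samples (Dixon's criterion). Chance marks about 1 in 20 groups, and 7 of the 66 checked were marked. At chr3:175770301-175779052, library MS-89 stood at 98.8 CPM among 8 h vehicle hearts of 34 to 50.3 CPM, and MS-77 at 50.9 CPM among 8 h high-dose hearts of 21.6 to 28.6 CPM. At chr12:30527062-30533751, MS-109 stood at 109.4 CPM among 8 h low-dose hearts of 76.2 to 79.9 CPM, and MS-76 at 71.9 CPM among 8 h vehicle hearts of 83.5 to 86.3 CPM. At chr17:23805570-23823131, MS-89 had 69.7 CPM where the other 8 h vehicle hearts had 57.3 to 58.9 CPM, and MS-61 had 58.7 CPM where the other 24 h vehicle hearts had 67.8 to 69.8 CPM. At chr15:4073136-4076590, MS-67 had 50.2 CPM where the other 24 h low-dose hearts had 55.9 to 58.1 CPM. The summed level had no such sample, and no effect of the high dose on a member was called different between 8 and 24 h.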

How the results depend on the processing

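The dose comparisons were between different rats. With the library number as a replicate block, a fit chosen after seeing the data over the 49 treated libraries with a parallel number, 297 members were called higher than in the liver and 298 than in the kidney, against 297 and 1 more without the block, and chr10:47165097-47181932 was at -0.86 from the kidney. Deviations from the group means over transcripts correlated with a median r of 0.0949 in 27 heart and liver pairs and 0.0818 in 21 heart and kidney pairs. Among the 5 hearts of its group, the heart of the same number had the highest r in 17 of the 27 and 8 of the 21. Without pairing about 1 in 5 would, and both counts are above that. Whether the numbers mark a rat was not tested further, and the main organ contrasts ignore any pairing. The organ counts, 297 members against the liver and all but 1 against the kidney, did not move by more than 2 under any alternative run, and leaving out any 1 of the 60 treated samples left both as they were. Against 2 called members in 24 h high-dose hearts, DESeq2 called 9, a fit of all 30 hearts 5, and no limit on the fold change 6. Against 0, DESeq2 called 2 in 8 h high-dose hearts and 2 between the doses at 24 h, where the fit of all hearts called 1. In 24 h high-dose livers, against 7, DESeq2 called 21 and the fit without MS-1 20. Between the doses in the liver at 8 h, against 5, it was 13 with DESeq2, 11 with the interval share as a covariate, and 3 without MS-9. At 24 h, against 1, it was 8 with DESeq2, 0 without a filter, 2 with at least 5 counts in 47% of samples, 3 with the covariate, and 3 without the fold limit. The causes were not tested. Leaving out 1 replicate gave 0 to 5 calls in the heart for the high dose at 24 h, 0 to 1 for the high dose at 8 h and for the low dose at 24 h, and in the liver 3 to 20 for the high dose at 24 h, 0 to 7 between doses at 8 h, and 0 to 4 between doses at 24 h.

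Of the 300 members, 83% were kept with a pseudocount of 0.1, 92% with 1, 62.3% with TPM, 94.3% with 8 h and 92% with 24 h vehicle samples alone, 98% with CPM over all targets, 93.7% with the most abundant intervals ranked, and 98% to 99% without 1 vehicle heart. With CPM over all targets the summed heart means were, from vehicle to low to high dose, 3767, 3683, and 3616 CPM at 8 h and 3955, 3658, and 3521 CPM at 24 h, and the kidney means 473.7, 459.8, and 500.8 CPM at 8 h and 459.9, 474, and 503 CPM at 24 h. The log2 difference of chr2:114389883-114409882 between treated heart and liver was -0.0944 with the high dose alone and 1.18 with the low dose alone. Leaving out 1 replicate, that of chr10:47165097-47181932 ran from -1.21 to 0.50 from the liver and from -1.12 to 0.48 from the kidney, and it was below 0 without the 24 h low-dose heart MS-67. At a median of 0.262 CPM a member had few counts in a vehicle liver, which limits calls there.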

Other observations

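The same rule applied to the liver and to the kidney gave lists of 300 intervals each, and those lay closer together in the genome. Within 50000 bases of another member of their own list lay 69 kidney-restricted and 56 liver-restricted intervals, against 27 heart-restricted ones, and within 10000 bases 29, 19, and 13. The counts are given as a description without a test. Of the heart-restricted intervals, 298 had a count above 0 in all 30 hearts.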
